A study of Mus musculus with 182 samples.

Results

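The genes described here are 9 transcription factors and cofactors of the germinal centre B cell: Bcl6, Bach2, Mef2b, Mef2c, Pax5, Ebf1, Irf8, Spib and Pou2af1. They were taken by symbol from a table of 17034 genes, and each was present. The table covers 182 single B cells of C57BL/6 mouse spleen, with 1 library per cell. The mice had been given the hapten carrier NP(23)-KLH (100 μg) by intraperitoneal injection, together with alum (50%) and LPS (1 μg), and spleen cells were prepared on day 13. T cells, CD11c-positive cells and IgD-positive B cells were removed with antibodies, and B220+, Fas high, GL7 high cells were sorted and captured on the Fluidigm C1 system, with SMARTer and Nextera XT chemistry. The sample labels call all cells NP+, whereas the design text lists NP among the stains and gates on the other 3 markers. No untreated cells, no other time point and no other genotype are part of the data, and no animal is named for a cell, so all cells form 1 group and 1 biological sample. No test was possible on it: intervals cover counting error over cells only, and correlations across cells are descriptions.

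BCL6 is a zinc finger repressor that germinal centre B cells need. It recruits corepressors to genes of the DNA damage checkpoint, of plasma cell differentiation and of cell migration, which keeps the cells in the reaction while they divide and mutate their antibody genes. MEF2B is known, from human B cells, to activate BCL6 transcription, IRF8 has been reported to do the same, and BACH2 acts beside BCL6 on the plasma cell gene Prdm1. PAX5 and EBF1 hold B cell identity, SPIB is an ETS family factor that pairs with IRF proteins on composite sites, and POU2AF1 (OCA-B) is the coactivator of the octamer proteins OCT1 and OCT2. Germinal centre B cells cycle between a dark zone, where they divide, and a light zone, where they meet antigen and T cells.

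RefSeq (GRCm38.p6) gave 14 promoter windows for the 9 genes, each from 250 bases before to 50 bases after a transcript start. The windows were searched on both strands for 7 letter patterns. The windows below are shown because Bcl6 and Mef2b are the genes on which the results turn and because each holds such a pattern, in capitals. The Mef2b window (chr8:70152511-70152810, plus strand) lies within the gene's GENCODE M21 span and holds the octamer ATGCAAAT at bases 166 to 173 of the window. The Bcl6 window (chr16:23981234-23981533, minus strand) is that of the downstream of 2 RefSeq starts. It holds the BCL6-type pattern TTCCTNGAA at bases 83 to 91 of the window. The ETS-IRF composite pattern, GGAA and after 2 bases of any kind GAAA, lies at bases 223 to 232.
Mef2b promoter: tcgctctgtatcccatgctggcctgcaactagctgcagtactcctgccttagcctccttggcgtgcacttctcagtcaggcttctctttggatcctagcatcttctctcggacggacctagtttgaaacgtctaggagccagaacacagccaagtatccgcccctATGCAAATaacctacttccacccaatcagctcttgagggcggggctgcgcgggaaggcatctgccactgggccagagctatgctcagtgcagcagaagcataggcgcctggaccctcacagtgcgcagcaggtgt
Bcl6 downstream promoter: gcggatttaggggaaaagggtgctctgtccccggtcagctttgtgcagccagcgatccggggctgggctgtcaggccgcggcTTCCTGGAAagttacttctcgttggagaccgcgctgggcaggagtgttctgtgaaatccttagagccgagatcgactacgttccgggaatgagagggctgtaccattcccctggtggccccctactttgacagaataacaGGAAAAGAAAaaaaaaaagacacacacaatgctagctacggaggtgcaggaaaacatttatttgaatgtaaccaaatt
The octamer was found in 1.74% of all 32851 promoter windows, TTCCTNGAA in 1.59% and the ETS-IRF composite in 2.72%. Among the other genes, a Bach2 window held the composite on the other strand, an Ebf1 window held the IRF repeat (GAAA, 2 bases, GAAA) on the other strand (3.44% of all windows), and a Mef2c window held TGANTCA, the core of AP-1 and BACH sites (7.81%). No member window held the MEF2 pattern (CTA, 4 bases, TAG; 3.69% of all windows) or the EBF1 pattern (TCCC, 2 bases, GGGA; 0.904%). The patterns do not overlap within the printed windows. A match describes the letters and does not show binding.

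The deposited values are a normalized, non-logarithmic signal whose unit is not given in the sources used here, so levels are not compared between genes. Detection in a cell means a signal of 1 or more here. Cells share nearly the same set of values by rank, so that this threshold amounts to lying among the leading genes of the cell: a median of 1904 genes per cell reached it in cells 1 to 96 and 1690 in cells 97 to 182. The columns fall into these 2 sets by their values, with 96 and 86 cells. Whether the sets are capture runs or animals is not stated, and each result is given within both. In each set a gene has a lowest value, its floor, and cells in which it is not detected stand at the floor or between it and 1. Genes above their floor numbered between 980 and 5146 per cell, and 6 cells, all of cells 97 to 182, had fewer than 1500 genes at a signal of 1 or more. Reads per cell are not known. Of the 13 germinal centre B cell markers 9 were detected in over 50% of cells, including Cd79b, Cd74 and H2-Ab1 in 180 cells each, while the median share was 1.65% for 7 T cell markers, 2.2% for 9 myeloid markers and 0.549% for 3 NK cell markers. Genes of another cell type were found in 11 cells, as 2 or more markers of 1 of the T cell, myeloid, NK or erythroid lists.

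Of the 9 genes, 8 were detected in over 50% of the 182 cells, a share that 3.79% of all 17034 genes reached. The same 8 passed in cells 1 to 96 (4.64% of genes) and in cells 97 to 182 (3.01% of genes). The exception was Pax5. All 9 were detected in at least 10% of cells, as were 31.8% of genes. At a signal of 5 or more, 3 of the 9 (Mef2b, Mef2c and Pou2af1) stood above 50% of cells, so the count rests on where detection is set.

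Bcl6 was detected in 106 of 182 cells (58.2%, exact 95% interval 50.7% to 65.5%). Its signal had a lowest value of 0, a median of 2.09 and a highest value of 831 in cells 1 to 96, and a lowest value of 0.0697, a median of 2.03 and a highest value of 379 in cells 97 to 182. Both sets thus had a median just above the detection threshold, with shares of 59.4% and 57.0%. Bach2, a repressor of the plasma cell programme, was detected in 124 cells (68.1%, 60.8% to 74.8%), with medians of 3.4 in cells 1 to 96 and 2.84 in cells 97 to 182 and highest values of 625 and 606. It stood above its floor in 92.3% of cells, so that many cells without a detected Bach2 had a signal between the floor and 1.

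Mef2b and Mef2c belong to the MEF2 family of MADS box factors. Mef2b was detected in 138 cells (75.8%, 68.9% to 81.9%). Its signal ran from 0 through a median of 56.0 to 3358 in cells 1 to 96 and from 0.364 through a median of 21.3 to 5345 in cells 97 to 182. A signal of 5 or more was seen in 67.0% of cells, and 79.7% lay above the floor. Among the cells in which Mef2b was detected the signal was spread widely, with quartiles of 19.1 and 357. Mef2c, which acts downstream of B cell receptor signalling, had the highest share of the 9, with 155 cells (85.2%, 79.2% to 90.0%), a median signal of 15.1 and a highest signal of 749. Its share was 86.5% in cells 1 to 96 and 83.7% in cells 97 to 182.

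Of the B lineage factors, Ebf1 was detected in 139 cells (76.4%, 69.5% to 82.3%) and Pax5 in 61 cells (33.5%, 26.7% to 40.9%). Ebf1 had a median signal of 2.43 in cells 1 to 96 and 5.13 in cells 97 to 182, and its highest signal, 8761, was in cell 154. Pax5 was at its floor in most cells, which made its median 0 in cells 1 to 96 and 0.122 in cells 97 to 182, yet among the cells in which it was detected the median was 14.2 and the highest signal was 6672. The pattern was therefore of few cells with a high signal, and 24.2% of all cells reached 5.

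Irf8, an interferon regulatory factor of B cells and myeloid cells, was detected in 125 cells (68.7%, 61.4% to 75.3%), with a median of 3.28 and a highest signal of 3952. Spib was detected in 113 cells (62.1%, 54.6% to 69.2%), with a median of 2.19 and a highest signal of 3529. Pou2af1 was detected in 130 cells (71.4%, 64.3% to 77.9%), with a median of 7.62 and a highest signal of 1330. Each of these genes had cells at the floor beside cells with signals far above their medians.

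In the order of shares, from Mef2c through Ebf1, Mef2b, Pou2af1, Irf8, Bach2, Spib and Bcl6 to Pax5, the intervals of neighbours overlapped everywhere except between Bcl6 and Pax5. How far gene length adds to this order is not known, because the values are not stated to be per length. The order also rests on where detection is set. At a signal of 5 or more Mef2b (67.0%) stood first and Ebf1 (48.9%) stood below Pou2af1 (51.6%). Counted above the floor, Bach2 (92.3%) stood ahead of Mef2b (79.7%). The 2 sets of columns differed by at least 15 percentage points for 3 genes, each with the higher share in cells 1 to 96. These were Pax5 (43.8% in cells 1 to 96, 22.1% in cells 97 to 182), Pou2af1 (80.2%, 61.6%) and Mef2b (83.3%, 67.4%). Among the 5409 genes detected in at least 10% of cells, 9.82% were higher by this margin in cells 1 to 96 and 0.666% were higher in cells 97 to 182. Ebf1 was the member with the lower share in cells 1 to 96 (74.0%, against 79.1% in cells 97 to 182).

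**Figure D1:**
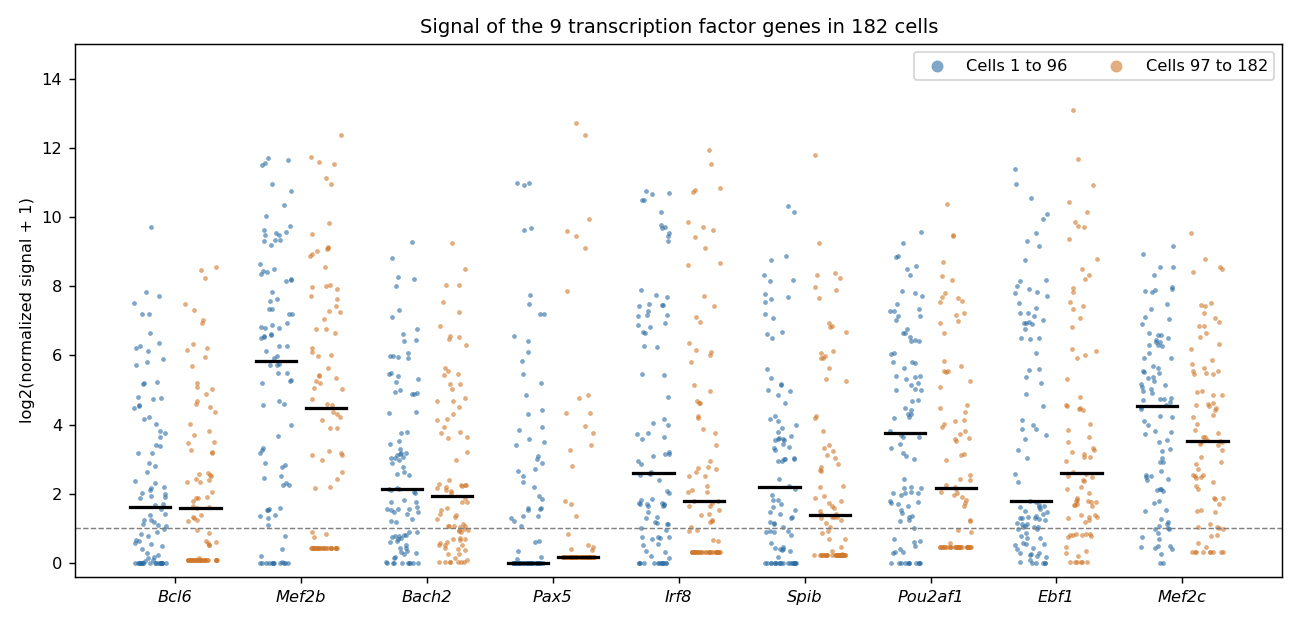
Each point is 1 cell; the vertical axis is log2(normalized signal + 1), the blue column of each gene holds cells 1 to 96, the orange column cells 97 to 182, the bars are medians and the dashed line is the detection threshold of a signal of 1. Mef2b and Mef2c have their medians well above the line, and most Pax5 points lie on the floor below it.

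A cell had a median of 6 of the 9 genes detected, with 7 in cells 1 to 96 and 6 in cells 97 to 182. All 9 were detected together in 4 cells, all of them in cells 1 to 96. At least 7 were detected in 75 cells (41.2%), at most 3 in 11 cells (6.04%), and no cell had fewer than 2. Which of the 9 genes were detected thus differed from cell to cell. These numbers were not compared with those that unrelated genes with the same shares would give, so they describe detection only.

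The 36 pairs among the 9 genes were compared across cells by Spearman's rho, as a description over 182 cells that share 1 sample, the capture method and, within each set, the same ladder of values. The median rho over the pairs was 0.01, against 0.04 over all pairs of the genes detected in at least 10% of cells. Within cells 1 to 96 it was 0.02 (all genes 0.01) and within cells 97 to 182 it was -0.03 (all genes 0.02). A rho of 0.15 or more was seen for 4 of the 36 pairs, where 25.9% of all gene pairs reached it, and a rho of -0.15 or less for 2 pairs, where 14.1% of all gene pairs did. The other 30 pairs were smaller than 0.15 in size. The background was wider over all cells than within the sets. A rho of 0.15 or more was reached by 25.9% of all gene pairs over all cells. Within cells 1 to 96 it was reached by 11.3%, and within cells 97 to 182 by 14.8%. The cause of this difference was not tested, and relations are also given within each set.

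In cells 1 to 96 a rho of 0.15 or more was seen for 5 pairs (background 11.3%) and a rho of -0.15 or less for 2 pairs (7.54%). In cells 97 to 182 the counts were 5 pairs (14.8%) and 4 pairs (6.68%). A rho of 0.15 or more in both sets was found for 1 member pair, Bcl6 with Mef2c, and for 2.33% of all gene pairs. A rho of -0.15 or less in both sets was found for 1 member pair, Mef2b with Ebf1, and for 0.737% of all gene pairs. The sign was the same in both sets for 22 of the 36 pairs, and for 53.3% of all gene pairs.

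Bcl6 had the higher signal in cells with more Mef2c: rho was 0.18 over all cells, 0.16 in cells 1 to 96 and 0.22 in cells 97 to 182. Both genes were detected together in 97 cells, where the product of their shares gives 90.3. Bcl6 and Mef2b had a rho of 0.17, with 0.13 in cells 1 to 96 and 0.28 in cells 97 to 182, and were detected together in 89 cells, where the product gives 80.4. Restricted to those 89 cells, rho between Bcl6 and Mef2b was -0.03. For Bcl6 and Mef2c it was 0.16 in the cells with both.

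Bcl6 and Pax5 were opposed, with a rho of -0.21 over all cells, -0.13 in cells 1 to 96 and -0.39 in cells 97 to 182. They were detected together in 26 cells, where the product of shares gives 35.5, and in cells 97 to 182 in 5 cells, where it gives 10.8. Among the 26 cells with both, rho was 0.13, the opposite sign. Bcl6 had a rho of -0.20 with the number of genes above the floor of a cell (-0.23 in cells 1 to 96, -0.18 in cells 97 to 182), and Pax5 had 0.01 (0.07 in cells 1 to 96, 0.26 in cells 97 to 182). With the same number Mef2c had -0.15 (-0.14, -0.32) and Mef2b had 0.02 (0.00, -0.04). With that number and the set removed by regression on ranks, rho was -0.20 for Bcl6 and Pax5 and 0.18 for Bcl6 and Mef2b. For Bcl6 and Mef2c it was 0.14, under the limit of 0.15.

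The relations of Bcl6 to the other 5 genes were small over all cells: -0.08 with Bach2, 0.00 with Irf8, 0.00 with Spib, -0.01 with Pou2af1 and -0.04 with Ebf1. That with Ebf1 had opposite signs in the sets (0.09 in cells 1 to 96, -0.21 in cells 97 to 182). Among the 70 cells with both Bcl6 and Bach2 detected, rho was 0.20, the opposite sign to that over all cells. In cells with both genes detected it was -0.06 for Bcl6 with Irf8, -0.04 with Spib, -0.08 with Pou2af1 and -0.05 with Ebf1. Among 4622 genes detected in at least 10% of cells of each set, ranked by the smaller of the rhos within the sets, Mef2c stood 46th and Mef2b 97th from the top in their likeness to Bcl6. From Mef2c's side Bcl6 stood 18th, and from Mef2b's side 153rd. Ranked from the bottom by the larger of those rhos, Pax5 stood 334th for Bcl6.

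Mef2b and Ebf1 were opposed in both sets, with a rho of -0.18 over all cells, -0.20 in cells 1 to 96 and -0.16 in cells 97 to 182, and -0.27 among the 104 cells with both. Irf8 and Spib, which can bind composite sites together, had a rho of 0.16 (0.10 in cells 1 to 96, 0.24 in cells 97 to 182) and were detected together in 80 cells, where the product of shares gives 77.6. Pax5 and Ebf1 had a rho of 0.15, but it was 0.25 in cells 1 to 96, -0.06 in cells 97 to 182 and -0.15 among the 48 cells with both. The factors that hold B cell identity thus did not have the same sign of relation in both sets. Spib and Pou2af1 (0.25 in cells 1 to 96, 0.02 in cells 97 to 182) and Bach2 and Irf8 (0.18, 0.09) also differed in size between sets.

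**Figure D2:**
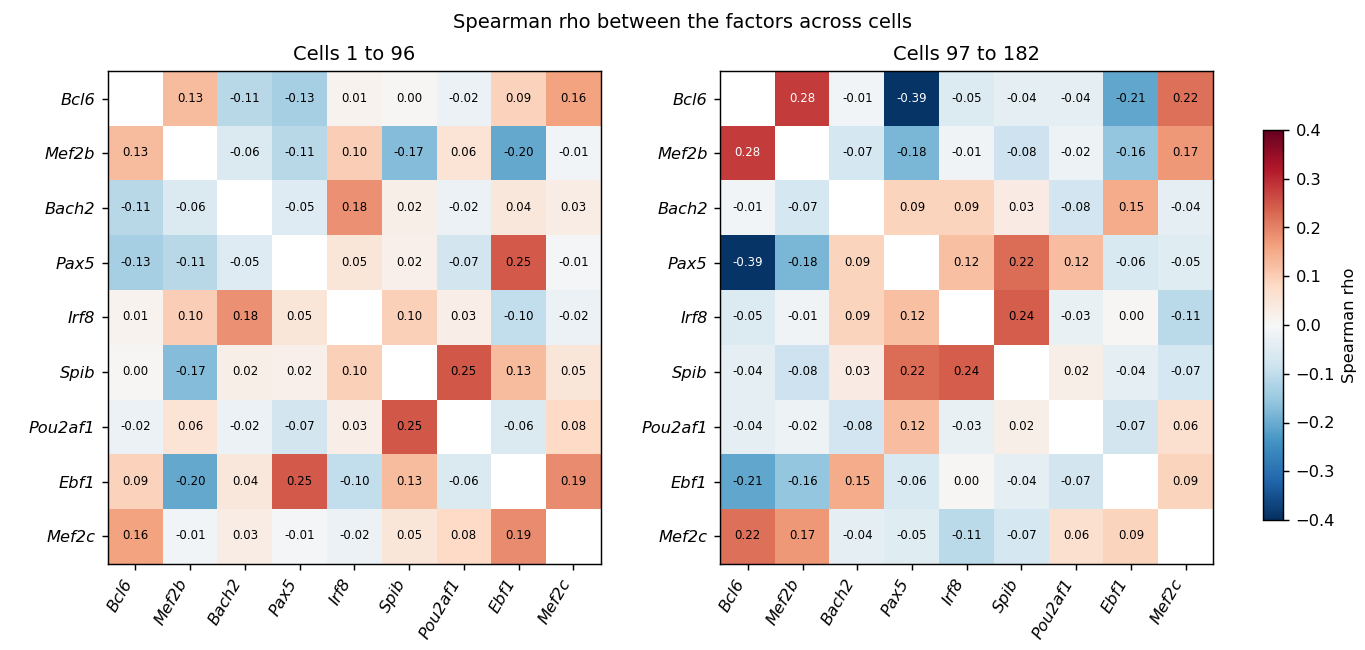
Spearman's rho for each pair of genes within cells 1 to 96 (left) and cells 97 to 182 (right); red is positive, blue is negative, and the colour scale ends at 0.4 and -0.4. The Bcl6 row is positive with Mef2b and Mef2c and negative with Pax5 in both panels, while most other squares are pale or differ between panels.

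**Figure D3:**
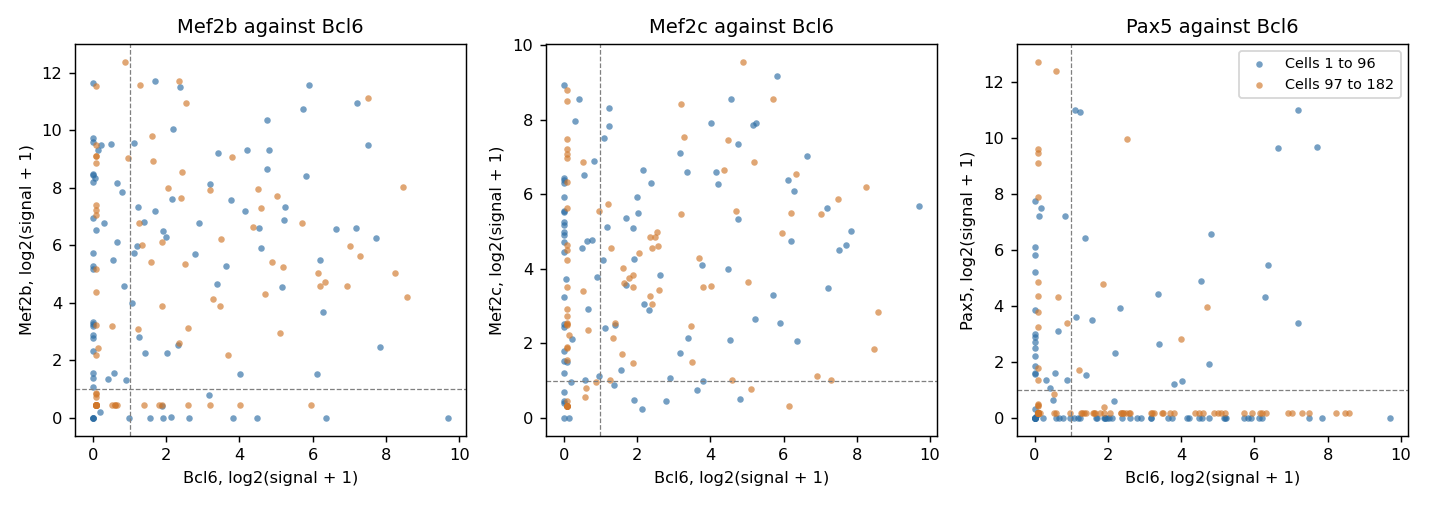
Each point is 1 cell, with log2(signal + 1) of Bcl6 on the horizontal axis and of Mef2b, Mef2c and Pax5 on the vertical axes; dashed lines mark the detection threshold of 1 and colours mark the sets of columns. In the Pax5 panel 26 of the 182 cells lie above both lines, and in the Mef2b panel 89 do.

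Antibody class was read from the heavy chain constant gene with over 50% of the summed constant gene signal in cells where that sum was 10 or more. This gave 41 switched cells (14 led by Ighg1, 13 by Ighg2b, 9 by Ighg2c and 5 by Ighg3) and 123 IgM cells. Ighd led in 1 cell, and neither Igha nor Ighe led in any. The switched cells fell into 24 of cells 1 to 96 and 17 of cells 97 to 182, and the IgM cells into 65 and 58. The median number of genes above the floor was 2436 in switched and 2407 in IgM cells.

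A share that differed by 15 points or more was found for 1 of the 9 genes, Mef2b, where 3.72% of the 5409 genes were higher in switched cells by this margin and 2.18% were lower. Mef2b was detected in 37 of 41 switched cells (90.2%, 76.9% to 97.3%) and in 88 of 123 IgM cells (71.5%, 62.7% to 79.3%). Its signal ran from 0 through a median of 73.8 to 5345 in switched cells and from 0 through a median of 25.5 to 3358 in IgM cells, so the groups overlapped over almost their whole range. The mean of log2(signal + 1) was 6.26 in switched cells and 4.65 in IgM cells, a difference of 1.62. The share differed by 5.96 points in cells 1 to 96 (87.5% of switched, 81.5% of IgM cells) and by 33.8 points in cells 97 to 182 (94.1% of switched, 60.3% of IgM cells), and the mean log2 signal by 1.15 and 2.17. By class, Mef2b was detected in 13 of 14 Ighg1, 12 of 13 Ighg2b, 7 of 9 Ighg2c and 5 of 5 Ighg3 cells. Counted at any signal above the floor, the Mef2b difference was 13.8 points, and at a signal of 5 or more it was 26.0 points.

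Bach2 was detected in 33 of 41 switched cells (80.5%) and 84 of 123 IgM cells (68.3%), a difference of 12.2 points (17.2 in cells 1 to 96 and 5.78 in cells 97 to 182). Counted above the floor it was 0.00 points. Irf8 was detected in 78.0% of switched and 66.7% of IgM cells, with medians of 3.16 in switched and 3.19 in IgM cells. By class, Irf8 was detected in 10 of 14 Ighg1, 13 of 13 Ighg2b, 5 of 9 Ighg2c and 4 of 5 Ighg3 cells. Bcl6 was detected in 27 switched cells (65.9%, 49.4% to 79.9%) and 68 IgM cells (55.3%, 46.1% to 64.3%), a difference of 10.6 points (5.58 in cells 1 to 96 and 17.1 in cells 97 to 182), and the intervals overlap. At a signal of 5 or more the Bcl6 difference was 15.4 points. For Spib, Mef2c, Pax5, Ebf1 and Pou2af1 the difference lay between -2.44 and 3.25 points. Ebf1, with nearly the same share in switched (78.0%) and IgM cells (76.4%), had a lower mean log2 signal in switched cells (3.17) than in IgM cells (4.00), with differences of -0.62 in cells 1 to 96 and -1.13 in cells 97 to 182. In cells 97 to 182 alone, 3 genes passed 15 points, namely Mef2b, Bcl6 and Irf8, against a background of 11.3% higher and 7.47% lower, and in cells 1 to 96 it was Bach2 alone (background 7.10% and 6.91%).

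**Figure D4:**
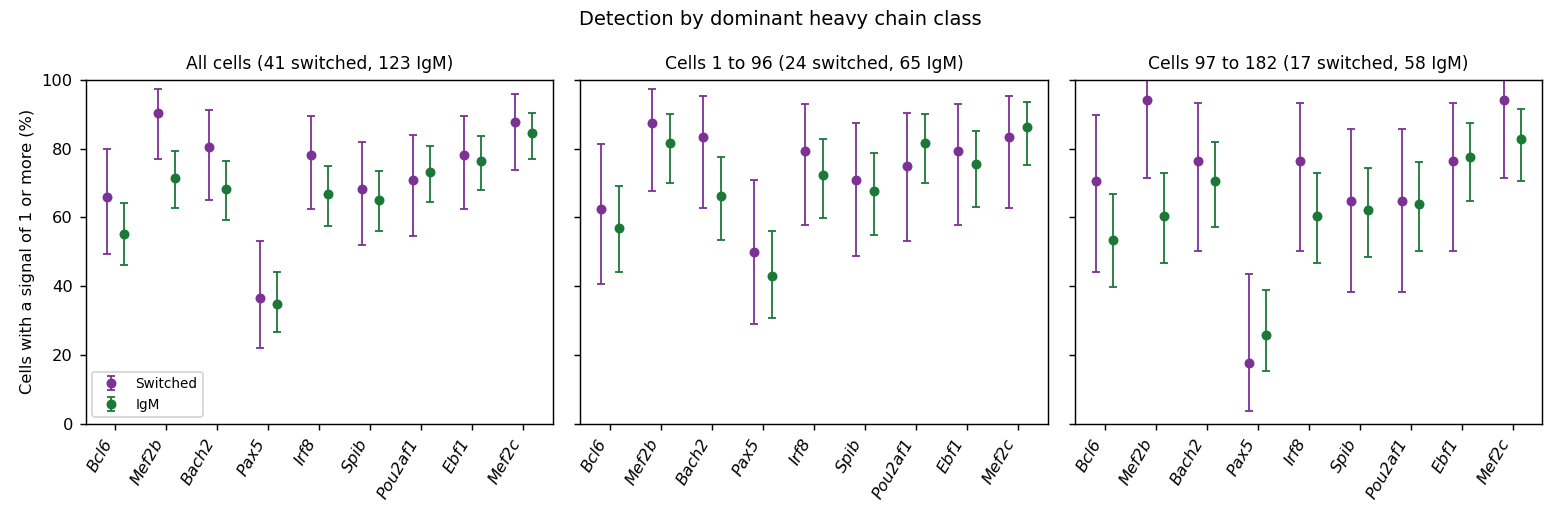
Share of cells with a signal of 1 or more for each gene in switched (purple, left of each pair) and IgM cells (green), with exact 95% intervals that cover counting error over cells only; the panels hold all cells, cells 1 to 96 and cells 97 to 182. The intervals overlap for all 9 genes in the first panel, and the Mef2b difference is widest in cells 97 to 182.

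The summed signal of the 9 myeloid markers was 0.172 to 71.8 in switched cells and 0.172 to 1530 in IgM cells, with a median of 0.182 in both. That of the 7 T cell markers was 0.00907 to 193 in switched cells and 0.00907 to 968 in IgM cells, and Cd3d and Cd4 were detected in 0 cells. Markers of NK cells (1 cell each for Klrb1c, Nkg7 and Gzma) and of erythroid cells (at most 5 cells each) were as rare. The 6 stromal markers summed to 0.0512 to 11356 in switched cells and 0.0512 to 1316 in IgM cells, with medians of 0.0932 and 0.169, and 2 or more of them were detected in 4 of 41 switched and 4 of 123 IgM cells. Of these Cr1l was detected in 32 cells, Pecam1 in 28 and Col1a1 in 0. The 9 plasma cell genes summed to 0.547 to 6732 in switched cells, with a median of 43.2, and to 0.0406 to 5296 in IgM cells, with a median of 77.8. The part of these genes in the differences was not tested. Without the 11 cells that had 2 or more markers of 1 of the T cell, myeloid, NK or erythroid lists, the Mef2b difference was 19.1 points. The stromal and plasma cell lists were not used to leave out cells.

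Division was scored by 38 S phase genes and 55 G2/M phase genes, as the mean of their standardised log2(signal + 1). A rho of 0.15 or more in size was found for 1 of the 9 genes, Ebf1, which had -0.20 with the S phase score (5.25% of genes at -0.15 or less, 8.38% at 0.15 or more) and -0.18 with the G2/M phase score (4.22% and 10.3%). Within the sets it was -0.15 in cells 1 to 96 and -0.27 in cells 97 to 182 for S phase, and -0.16 and -0.24 for G2/M phase. Ebf1 had a rho of -0.20 with Top2a, which untangles DNA in mitosis (-0.19 in cells 1 to 96, -0.20 in cells 97 to 182), and -0.18 with the proliferation marker Mki67. Other division genes had weaker values with Ebf1: Mcm5 -0.14, Uhrf1 -0.10, Cenpe -0.08, Rrm2 -0.05, Ccna2 -0.02 and Ccnb1 -0.004. Nusap1 had -0.02 (-0.10 in cells 1 to 96, 0.12 in cells 97 to 182), and Pcna had the other sign, 0.09 (0.08, 0.10). These division genes were chosen for naming after their values were seen. The rho of Ebf1 with the number of genes above the floor was -0.15 (-0.26 and -0.03 within the sets). With that number and the set removed, the rho of Ebf1 was -0.18 for S phase and -0.15 (-0.147) for G2/M phase. The value for G2/M phase was thus just under the limit in size.

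Mef2b stood on the other side, with a rho of 0.15 (0.147) with the S phase score, just under the limit, and 0.17 in cells 1 to 96 and 0.16 in cells 97 to 182. With the G2/M phase score it was 0.11, and with Mki67 it was 0.25 (0.29 in cells 1 to 96, 0.24 in cells 97 to 182). Other division genes, like Mki67 named after their values were seen, were lower with Mef2b: Top2a had 0.12 (0.20, 0.06), Nusap1, of the mitotic spindle, 0.10 (0.26, -0.07), and Rrm2, a subunit of the enzyme that makes deoxynucleotides, -0.03 (0.02, -0.14). Ccna2, which encodes cyclin A, had -0.07 (-0.02, -0.05) and Pcna, the sliding clamp of DNA replication, -0.15 (-0.12, -0.10). Spib had -0.13 with S phase and -0.14 with G2/M phase, with the same sign in both sets. Bcl6 showed little: 0.10 with S phase (0.15 in cells 1 to 96, 0.04 in cells 97 to 182) and 0.03 with G2/M phase. Irf8 had opposite signs for G2/M phase in the sets (-0.14 in cells 1 to 96, 0.21 in cells 97 to 182). In cells 1 to 96 alone, 4 genes passed 0.15 in size with either score, namely Mef2b, Spib, Ebf1 and Mef2c, where 16.4% of genes were at 0.15 or more and 8.75% at -0.15 or less for S phase, and 21.8% and 8.91% for G2/M phase. In cells 97 to 182 alone, Mef2b, Irf8 and Ebf1 passed, where the shares of genes were 15.1% and 10.7% for S phase and 18.9% and 5.74% for G2/M phase.

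A light zone minus dark zone score was built from 22 light zone genes and 16 dark zone genes, with none of the 9 factors among them. It reached 0.15 in size for 1 of the 9 genes, again Ebf1, with a rho of 0.20 (0.25 in cells 1 to 96, 0.13 in cells 97 to 182), where 2.66% of genes were at 0.15 or more and 8.83% at -0.15 or less. With the dark zone genes alone Ebf1 had -0.22 (-0.19 in cells 1 to 96, -0.26 in cells 97 to 182), and with the light zone genes alone 0.08 (0.20, -0.05). Several dark zone genes are mitotic genes that the G2/M list also holds. Mef2b had a rho of 0.19 with the dark zone genes (0.22 in cells 1 to 96, 0.13 in cells 97 to 182) and -0.13 with the difference score. Mef2c had 0.31 with the difference score in cells 1 to 96 and -0.17 in cells 97 to 182, so its relation over all cells (0.10) joins opposite relations. Bcl6 had 0.04 (0.11 in cells 1 to 96, -0.07 in cells 97 to 182). Its sign thus differed between the sets. In cells 1 to 96 alone, 3 genes passed 0.15 in size with the difference score (Mef2b, Ebf1 and Mef2c; 7.61% of genes at 0.15 or more, 21.9% at -0.15 or less), and in cells 97 to 182 alone it was Mef2c (7.78% and 9.5%).

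**Figure D5:**
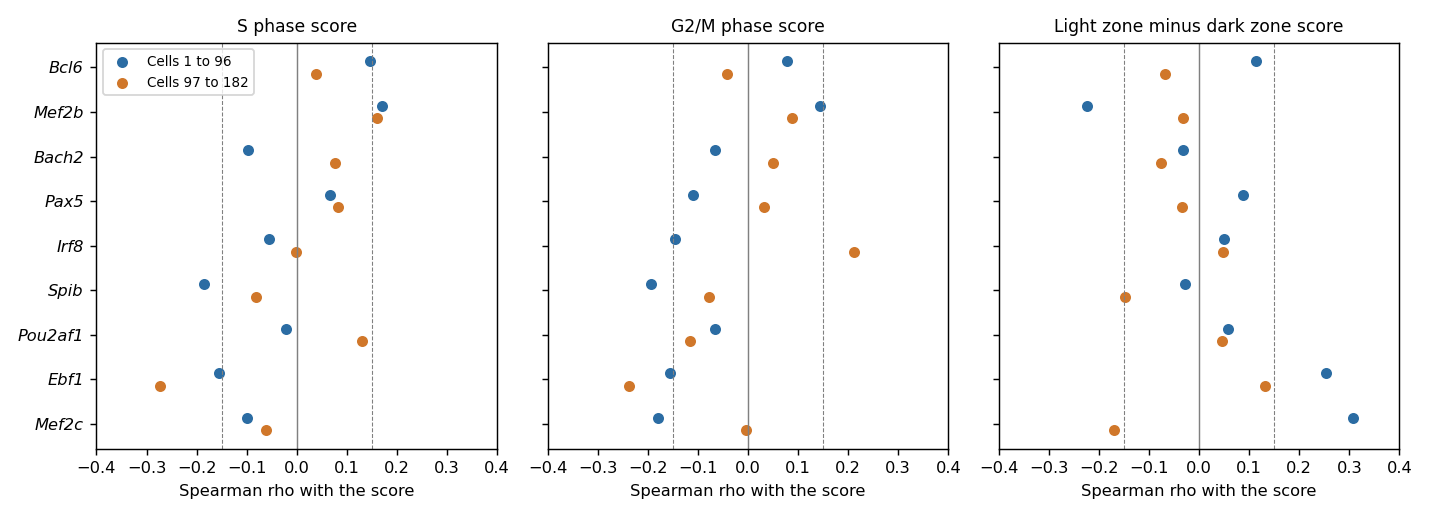
Spearman's rho of each gene with the S phase, G2/M phase and light zone minus dark zone scores within cells 1 to 96 (blue) and cells 97 to 182 (orange); dashed lines mark 0.15 and -0.15. Ebf1 lies left of the line in both sets for S and G2/M phase, and Mef2c has opposite signs in the right panel.

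The genes most like Bcl6 across cells, taken as those with the highest value of the smaller of the within-set rhos, included 1 gene known from the germinal centre, Nuggc, a nuclear GTPase of germinal centre B cells, with a rho of 0.29 (0.29 in cells 1 to 96, 0.28 in cells 97 to 182). The first was Lars2, a mitochondrial leucyl-tRNA synthetase, with 0.42. Sfi1, which encodes a centrosomal protein, had 0.37 and Rn45s, the ribosomal RNA precursor, had 0.34. The others were the chromatin genes Kmt2a (0.28), Baz1b (0.28) and Bptf (0.29) and the guanine nucleotide exchange factor Arhgef12 (0.28). Most opposed were the ribosomal protein genes Rps25 (-0.36), Rps7 (-0.33) and Rpl39 (-0.32) and the mitochondrial ribosomal gene Mrpl30 (-0.26). Over 61 ribosomal protein genes, a set formed after these names had been seen, the median rho with Bcl6 was -0.10 (-0.13 in cells 1 to 96, -0.14 in cells 97 to 182). Over all cells this median was also negative with Mef2b (-0.07), Bach2 (-0.07), Mef2c (-0.05) and Ebf1 (-0.03). It was positive with Spib (0.10), Pou2af1 (0.06), Pax5 (0.04) and Irf8 (0.01). Over all genes the median rho with Bcl6 was -0.02 (-0.03, -0.04). The rho of Bcl6 with genes above the floor, given above, was also negative, and its part in these relations was not tested.

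For Mef2b the nearest genes were Nuggc (0.31), Mybl1 (0.35), which encodes A-MYB, a factor of dividing germinal centre B cells, and the translation initiation factor Eif5b (0.32). Nuggc was thus among the nearest genes of both Bcl6 and Mef2b. Ebf1 had Map3k1 (0.39), a kinase of the JNK pathway, Sdc4 (0.39), the proteoglycan syndecan-4, and Ets1 (0.32). Bach2 had Fam214a (0.28), the kinase Map4k2 (0.29) and Rnf187 (0.20), and Pax5 had the kinase Tesk2 (0.39), the AMPK subunit Prkag1 (0.31) and the RNA exosome subunit Exosc1 (0.26). Irf8 had the receptor Notch2 (0.27), the lipid flippase Atp8a1 (0.28) and Txndc5 (0.23). Spib had the histone gene H3f3a (0.30), Ptprcap (0.31), whose product associates with CD45, and Klf13 (0.24). Pou2af1 had the Golgi mannosidase Man2a1 (0.25), Atf1 (0.16) and Acin1 (0.27), and Mef2c had Sipa1 (0.25), Mical1 (0.20) and Jun (0.14).

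Of 23 genes that BCL6 is reported to repress, 22 were in the table, with a median share of 13.2% of cells. Detection in at least 10% of cells was reached by 13 of them, and by 31.8% of all genes. Detection in over 50% of cells was reached by 1, Trp53 (60.4%), and by 3.79% of all genes. Prdm1, the master gene of plasma cells, was detected in 2 cells, Irf4 in 24 cells (13.2%, 8.64% to 19.0%) and Myc in 34 cells (18.7%, 13.3% to 25.1%). Of the 13 targets detected in at least 10% of cells, 0 had a rho with Bcl6 of 0.15 or more and 2 had -0.15 or less, where 3.22% of 5400 genes were at 0.15 or more and 6.76% at -0.15 or less. The 2 were Cdkn1b, the cell cycle inhibitor p27, with -0.30 (-0.28 in cells 1 to 96, -0.44 in cells 97 to 182), and Nfkb1 with -0.21 (-0.25, -0.22), which is named after its value was seen. Irf4 had -0.14, Trp53 -0.14, Cxcr4 -0.14 and Myc -0.06. The median rho of the 13 was -0.06, against -0.02 over all genes.

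The corepressors with which BCL6 works were in the table in 18 of 18 cases, 4 of them in over 50% of cells: Ezh2 (72.0%), the methyltransferase of the Polycomb complex, Chd4 (70.9%), the remodeller of the NuRD complex, Ncor1 (68.1%) and Gps2 (51.1%) of the NCoR complex. Of these Chd4 had a rho with Bcl6 of 0.21 (0.16 in cells 1 to 96, 0.26 in cells 97 to 182), the only 1 of the 16 corepressors found in 10% of cells to pass 0.15. Among all genes 3.22% were at 0.15 or more with Bcl6 and 6.76% at -0.15 or less. Ncor1 had 0.13, Ezh2 0.05 and Gps2 -0.14.

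Of 24 other B cell factors 10 were found in over 50% of cells and 21 in at least 10%. Of these 21, 3 had a rho of 0.15 or more with Bcl6 and 1 had -0.15 or less, where 3.22% and 6.76% of all genes did. The 3 were Pou2f2, the octamer protein OCT2 (0.17, with 0.23 in cells 1 to 96 and 0.11 in cells 97 to 182), Mybl1 (0.16, with 0.02 and 0.34) and Zbtb20 (0.16, with 0.16 and 0.14). Ets1 was opposed to Bcl6 with -0.20 (-0.17 in cells 1 to 96, -0.22 in cells 97 to 182) and stood with Ebf1 on the other side, at 0.32 (0.31, 0.33).

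Among 18 B lineage genes, most of them PAX5 or EBF1 targets, 15 were found in over 50% of cells. Bcl6 had 3 at 0.15 or more and 4 at -0.15 or less, where 3.22% and 6.76% of all genes were. Cd22 had 0.19 (0.16 in cells 1 to 96, 0.25 in cells 97 to 182), while Cd79a, the signalling chain of the B cell receptor, had -0.25 (-0.21, -0.28) and Ms4a1, which encodes CD20, had -0.19 (-0.15, -0.23). Cd79a was also opposed to Mef2b, with -0.22 (-0.27, -0.17), and went with Ebf1, with 0.29 (0.25, 0.35). Ebf1 had 3 of the 18 at 0.15 or more and 0 at -0.15 or less, where the shares of all genes were 3.78% and 4.59%. Pax5, whose targets many of these genes are, had 2 at 0.15 or more (12.9% of genes) and 0 at -0.15 or less (2.13%). They were Cd72 and Vpreb3, named after their values were seen. Spib had 4 of the 18 at 0.15 or more (3.67% of genes) and 0 at -0.15 or less (2.39%), among them Cd37 with 0.23 (0.21, 0.23) and Ms4a1 with 0.20 (0.21, 0.16). Pou2af1 had 0.24 with Cd74, the invariant chain of MHC class II (0.23, 0.23), and 0.21 with H2-Ab1, an MHC class II chain (0.20, 0.23). Igj, which encodes the J chain that joins antibody subunits, was detected in 101 cells and went with Mef2b at 0.30 (0.24 in cells 1 to 96, 0.39 in cells 97 to 182), against -0.22 with Ebf1 (-0.29, -0.10) and -0.29 with Pax5 (-0.29, -0.22). Other genes of the plasma cell list had negative values with Mef2b over all cells: Mzb1, a chaperone of antibody secretion, had -0.11 (-0.19, -0.02), the surface receptor Slamf7 -0.04 (0.09, -0.13) and Xbp1, a factor of secretory cells named after its value was seen, -0.05 (-0.07, -0.09). The median over the 6 genes of that list detected in at least 10% of cells was -0.04, against -0.02 over all genes.

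Among 12 genes of exit from the germinal centre and of memory cells, 5 were detected in at least 10% of cells. With Ebf1, 3 of the 5 had a rho of 0.15 or more and 0 had -0.15 or less, where 3.78% and 4.59% of all genes did. The 3 were Hhex with 0.26 (0.26 in cells 1 to 96, 0.32 in cells 97 to 182), Skil with 0.24 (0.30, 0.12) and Cd38, named after its value was seen, with 0.16 (0.12, 0.24). Bcl6 had 0 of the 5 at 0.15 or more and 0 at -0.15 or less, where 3.22% and 6.76% of all genes were. None of the T cell, myeloid, NK or erythroid markers in the table was detected in 10% of cells, and their part in these relations was not tested.

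Some exons of the 9 genes overlap other genes in GENCODE M21, and the counting of strand is not given in the sources used here. Pax5 shares 636 exon bases (7.18%) with 5730488B01Rik, Bach2 shares 537 (5.40%) with its antisense gene Bach2os, and Mef2b shares 62 (4.42%) with Borcs8 on the same strand. The table holds Borcs8 as 2310045N01Rik, which was detected in 30 cells and had a rho of 0.03 with Mef2b (0.10 in each set). Both were detected together in 27 cells, where the product of their shares gives 22.7. Reads from these stretches cannot be told apart.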

How the data were processed

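The table of a normalized signal per gene and cell was deposited by the authors. Per the submitters' processing notes it was made with TopHat2 2.0, Cufflinks 2.2 and Cuffdiff on mm10; the normalization, the annotation and the starting unit are not stated there, and the notes name no version of Cuffdiff. The signal is neither a count nor scaled to a fixed total, so no count model was used, and precision from depth is unknown.

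It had 17035 rows for 17034 symbols (1 of 2 rows of a symbol was kept), and 20 symbols turned into dates were not matched. Columns were taken by name. No cell was removed and no doublet caller was run. Since all cells are 1 sample, no test was made. Detection was a signal of at least 1. Intervals of shares are exact (Clopper-Pearson, 95%) and cover only counting error. Spearman's rho used the deposited signal. Scores were means of z-scores of log2(signal + 1) over the list genes that reached detection in 10% of cells or more, the same limit as for rho with other genes. A share difference of 15 points and a rho of 0.15 were the limits for a count. Promoters came from RefSeq GRCm38.p6 and gene spans from GENCODE M21, the assembly of mm10. Python 3.11.15, numpy 2.4.6, pandas 2.3.3, scipy 1.17.1 and matplotlib 3.10.9 were used, and the scripts were tested on simulated data.

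The genes, lists and limits were chosen with earlier results of these data known. Named genes were the 9 factors, the heavy chain constant genes, the genes most like each factor (8 for Bcl6, 3 for the others, by the smaller rho of the sets), the 4 most opposed to Bcl6, and the leading genes of each list by share of cells, with Prdm1, Irf4 and Myc. Others are marked as named after their values were seen.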

Additional observations from a re-analysis of the deposited data

How the results depend on the processing

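The median rho of the 36 pairs stayed between -0.03 and 0.02, and pairs at 0.15 or more numbered 3 to 5, under all alternatives run for them. With detection at 5, 3 of the 9 genes were in over 50% of cells instead of 8, and 2 genes (Mef2b and Bcl6) instead of 1 passed 15 points between switched and IgM cells. With detection above the floor 0 passed, and in cells 97 to 182 alone 3 passed. For division, 1 gene passed 0.15 over all cells, against 4 in cells 1 to 96, 3 in cells 97 to 182, 3 with a pseudocount of 10, and 2 each with ranks within sets, with depth and set regressed out, without a filter on low values and without the 11 cells with markers of another cell type. For the zone score, 3 passed in cells 1 to 96 and 2 without the filter, instead of 1. The rho of Pax5 and Ebf1 was -0.061 in cells 97 to 182 and -0.15 in cells with both detected. Among cells with both detected, that of Bcl6 and Mef2b was -0.034 and that of Bcl6 and Pax5 was 0.13. The cause was not tested. Of the other values for single genes and pairs, 108 moved (outside the 95% interval of a share, by over 15 points of a difference or by over 0.05 in rho) and 509 did not. Leaving out the 6 cells with under 1500 genes or the 11 cells with markers of another type was chosen after seeing the data. No paired analysis was possible because all cells form 1 group. Depth per cell is unknown, so a gene at its floor is not shown to be absent.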
